A study of Mus musculus with 12 samples.

Results

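Cyclins are the regulatory subunits, and cyclin-dependent kinases (Cdks) the catalytic subunits, of the kinases that drive the cell cycle, and several members of both families act in transcription instead. Transcripts of these genes were measured in male mouse germ cells on 3' expression arrays. Members were all genes on the array whose symbol names a cyclin (Ccn and a letter) or a Cdk (Cdk and a number), which leaves out the Ccn growth factors and the Cdkn inhibitors. There were 44, namely 25 cyclin genes and 19 Cdk genes, of 18193 genes in all, and 111 probe sets measured them. Ccnb3 and Cdk18 lay under the filter on dim signals, so 42 of the 44 were tested. Ccnb1, a mitotic cyclin gene, was not analysed here.

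Each of the 4 groups held 3 arrays, labelled as biological replicates. Spermatid-like cells (SLC) were differentiated in vitro. Round spermatids (RS), the haploid cells that follow meiosis, came from testes of BDF1 males at 3 weeks. Primordial germ cell-like cells (PGCLC) were made in vitro and taken at day 6. Primordial germ cells (PGC), the embryonic precursors of sperm and egg, came from genital ridges of BDF1 male fetuses at E12.5. All cells were sorted by FACS, and the gate, the starting cells and the culture of the in vitro groups are not given in the sources used here. No group carried an allele or agent that the labels name. The design set in vitro cells against in vivo cells at both stages.

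In a dividing cell, D-type cyclins with Cdk4 and Cdk6 act in G1, cyclin E with Cdk2 at entry into S phase, cyclin A with Cdk2 and Cdk1 through S and G2, and cyclin B with Cdk1 in mitosis and meiotic division. Cyclin H with Cdk7 phosphorylates the other Cdks, and cyclins C, K and T with Cdk8, Cdk12, Cdk13 and Cdk9 act on Mediator or RNA polymerase II. Male PGCs of the early fetal gonad still divide by mitosis, whereas round spermatids have completed both meiotic divisions and do not divide. Cyclin A1 is the A-type cyclin of the male germ line and is required for meiosis in male mice.

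Promoter sequence is shown for Ccna1, which rose most between the stages, and for Ccnb2 and Cdk1, a mitotic cyclin and its kinase, of which only the kinase was called between the stages. RefSeq promoters were found for 34 of the 44 members, 36 promoters in all. The 250 bases before each transcription start (GRCm38.p6) were searched on both strands for the CCAAT box (CCAAT), for the cell cycle genes homology region, or CHR (TTTGAA and TTCGAA), and for the cyclic AMP response element, or CRE (TGACGTCA). These motifs do not overlap in the promoters shown, where capitals mark the CCAAT boxes (ATTGG on the other strand) and CHRs. All 3 genes lie on the minus strand, Ccna1 with chr3:55055056-55055305, Ccnb2 with chr9:70421555-70421804 and Cdk1 with chr10:69352913-69353162.
Ccna1: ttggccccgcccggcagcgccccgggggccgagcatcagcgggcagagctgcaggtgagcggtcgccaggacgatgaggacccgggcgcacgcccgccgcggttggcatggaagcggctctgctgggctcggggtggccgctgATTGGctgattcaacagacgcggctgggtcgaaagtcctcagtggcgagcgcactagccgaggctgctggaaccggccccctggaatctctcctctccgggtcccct
Ccnb2: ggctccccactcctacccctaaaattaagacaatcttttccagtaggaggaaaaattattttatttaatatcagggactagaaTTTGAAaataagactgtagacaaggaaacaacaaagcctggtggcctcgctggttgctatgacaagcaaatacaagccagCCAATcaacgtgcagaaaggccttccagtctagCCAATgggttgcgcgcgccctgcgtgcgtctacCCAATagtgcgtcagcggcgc
Cdk1: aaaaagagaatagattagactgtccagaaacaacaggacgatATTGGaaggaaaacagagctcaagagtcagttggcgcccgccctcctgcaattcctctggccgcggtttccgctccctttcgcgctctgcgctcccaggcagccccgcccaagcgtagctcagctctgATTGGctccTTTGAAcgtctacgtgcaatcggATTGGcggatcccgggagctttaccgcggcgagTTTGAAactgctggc
The Ccna1 promoter held 1 CCAAT box, 107 to 103 bases before the start, and no CHR. Ccnb2 held 3 CCAAT boxes and a CHR 167 to 162 bases before the start. Cdk1 held 3 CCAAT boxes and 2 CHRs, 71 to 66 and 15 to 10 bases before the start. Of the 36 member promoters, 17 (47.2%) held a CCAAT box, beside 33.8% of all 32851 promoters. A CHR was found in 5 (13.9%), beside 17.1% of all, both motifs in 4 (11.1%), beside 6.02%, and a CRE in 1, that of Ccnl1, beside 1.55%. A match is only a run of letters and says nothing of binding.

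Signals are the deposited linear intensities, which had been scaled to a common level on each array, and means are given ± SD of 3 arrays. Array medians lay between 73.2 and 107 units. Differences are log2 differences from a limma fit of all 12 arrays, after values under 30.7 units, the 25th percentile of the table, were set to that floor. A gene was called, and is said to have risen or fallen, at an adjusted p under 0.05 with at least a 2-fold change. Precision is limited by the small number of arrays, and in bulk samples fewer cells of a type and less RNA per cell cannot be told apart. All 6 spermatid markers, Prm1 and Tnp1 among them, lay above the filter level of 92.0 units on every SLC and RS array. None did so on every PGCLC or PGC array. All 7 PGC markers, Pou5f1 and Ddx4 among them, did so on every PGCLC and PGC array. Of these 7, 3 also did so on every SLC array and 3 on every RS array. Ddx4 was at 8154, 7098 and 7130 units in SLC and 11878, 11052 and 11210 in RS, so it did not mark the earlier stage alone. The summed signal of the PGC markers differed between PGCLC arrays, at 25805 to 55185 units in PGCLC, against 60614 to 63717 in PGC. Ddx4, a germ cell helicase gene, was at 486, 6507 and 3237 units on PGCLC replicates 1, 2 and 3, against 7053.5, 7709 and 7219 in PGC, and the globin Hbb-y at 1136, 14997 and 7843 units in PGCLC, against 11299, 12097 and 11552 in PGC. For both genes PGCLC replicate 2 was the nearest of its group to the PGC arrays and replicate 1 the farthest. So it was for Nanog, but in the other direction, at 10147, 2985 and 8247 units in PGCLC, against 2988, 3003 and 2769 in PGC. The summed signal of 8 testis somatic markers was 46344 to 46881 units in SLC, 1943 to 2292 in RS, 10903 to 14444 in PGCLC and 3878 to 4590.3 in PGC. That of 2 embryonic globins, markers of blood, was 12.1 to 75.3 units in SLC, 54.8 to 171 in RS, 1723 to 15803 in PGCLC and 12042 to 12826 in PGC. All 5 meiotic spermatocyte markers, Sycp1 and Sycp3 among them, lay above the filter level on every SLC and RS array. They summed to 50563 to 51993 units in SLC, 69546 to 73325 in RS, 1737 to 3530 in PGCLC and 4083 to 4405 in PGC. The sum of 4 spermatogonial markers was 1262 to 1540 units in SLC, 1155 to 1215 in RS, 4898 to 5401 in PGCLC and 5223 to 5663 in PGC.

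The PGCLC arrays were unlike each other in the members as well. The median absolute log2 distance of the 42 tested members from the PGC mean was 0.40 for PGCLC replicate 1, 0.16 for replicate 2 and 0.33 for replicate 3. Replicate 2 was the nearest of the 3 to PGC for 26 members, and replicate 1 the farthest for 28. On replicates 1, 2 and 3, 9, 2 and 4 members lay at least 2-fold from PGC. The median SD of a member on the log2 scale was 0.10 in SLC, 0.12 in RS, 0.20 in PGCLC and 0.11 in PGC. Over all genes tested it was 0.13 in SLC, 0.17 in RS, 0.30 in PGCLC and 0.13 in PGC, higher than over the members in every group. The distances and counts above were not computed over all genes, so they do not set the members apart. Some of the results that rest on PGCLC are therefore also given without replicate 2.

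**Figure D1:**
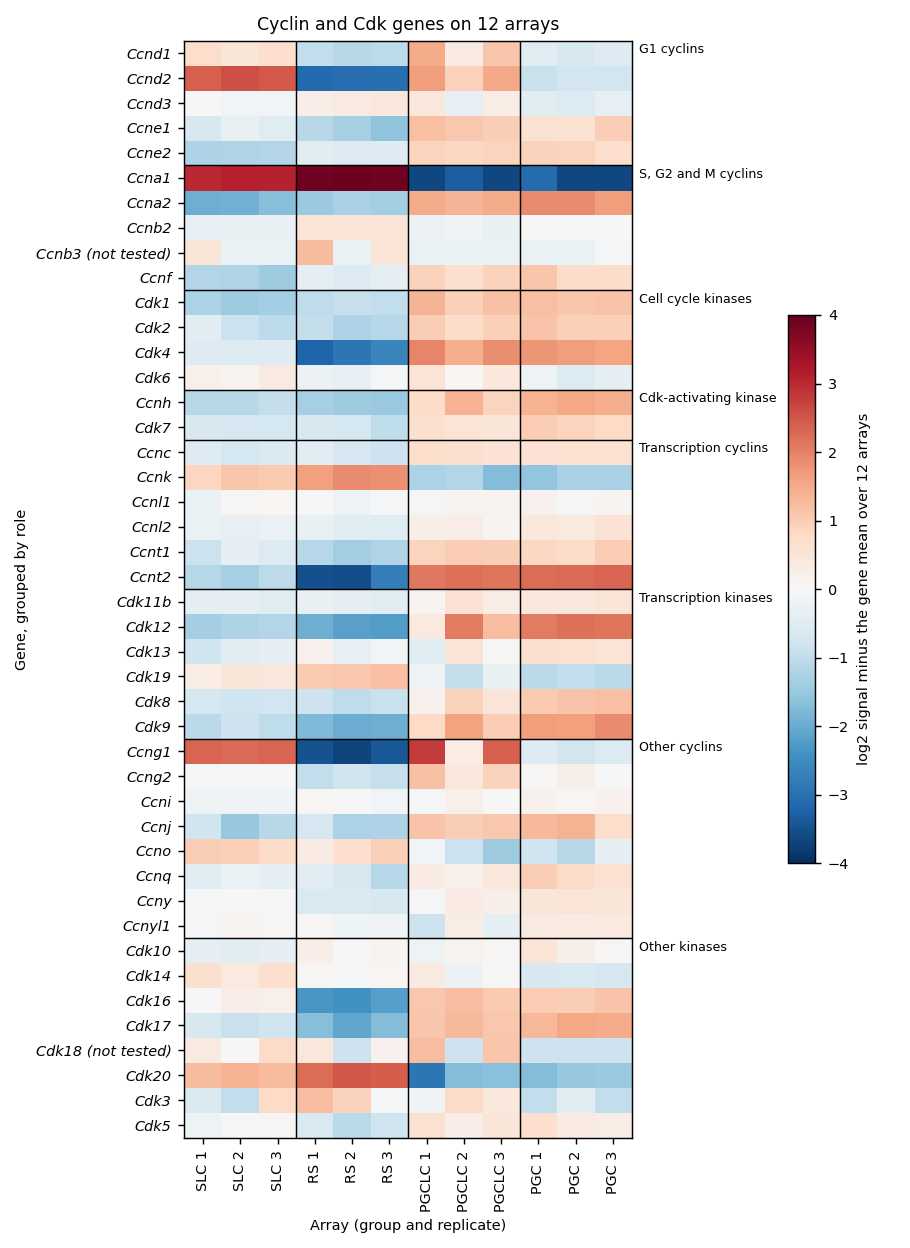
Signal of the 44 cyclin and Cdk genes on the 12 arrays, with genes in rows by role and arrays in columns as SLC, RS, PGCLC and PGC. Colour is the log2 signal, floored at 30.7 units, minus the mean of the gene over the 12 arrays. Most rows change colour between the SLC and RS columns on one side and the PGCLC and PGC columns on the other, and rows such as Ccnd2, Ccng1 and Cdk4 also differ between SLC and RS.

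RS were compared with PGC to ask how germ cells after meiosis differ from fetal germ cells. Cdk4, Cdk1 and Cdk2, both E-type cyclins and Ccna2 were lower in RS, whereas Ccna1 was far higher. Of the 42 members tested, 6 rose and 23 fell, which is 14.3% and 54.8%, beside 31.8% higher and 37.7% lower of all 14181 genes tested. With no minimum fold, 9 were higher and 28 lower, beside 82.3% of all genes in either direction. The median log2 difference was -1.24 over the members and -0.23 over all genes. By role, 3 of 5 G1 cyclins fell, 2 of 4 tested S, G2 and M cyclins fell and 1 rose, 3 of 4 cell cycle kinases fell, and both genes of the Cdk-activating kinase fell.

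Among the A-type and B-type cyclins, the A-type pair went in opposite directions. Ccna1 was at 5684, 5727 and 5608 units in RS, against 44.9, 25.3 and 4.41 units in PGC. The PGC arrays lay at or near the floor, and the groups did not overlap. Ccna1 rose at least 163-fold (log2 7.35, SE 0.17, limma adjusted p = 1.74e-12). Ccna2, the A-type cyclin of mitotic cells, was at 513, 579 and 546 units in RS, against 5346, 5250.3 and 4536 in PGC. All RS arrays lay below all PGC arrays, and Ccna2 fell 9.23-fold (log2 -3.21, SE 0.10, limma adjusted p = 4.13e-11). Its other probe set gave -3.96.

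The B-type cyclins did not pass 2-fold. Ccnb2, which binds Cdk1, was at 9188, 9014 and 9081 units in RS, against 6513, 6432 and 6361 in PGC. It was higher on every RS array, but by less than 2-fold (log2 0.50, SE 0.05, limma adjusted p = 2.88e-06). Ccnb3, a meiotic B-type cyclin gene, was under the filter, at 89.9, 27.3 and 52.7 units in RS and 28.9, 24.9 and 34.8 in PGC. Ccnf, which encodes an F-box protein of the cyclin family, fell 2.43-fold, to 581 ± 31.5 units in RS, against 1419 ± 215 in PGC.

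Most of the G1 cyclins were lower. Ccnd2, one of 3 D-type cyclin genes, was at 82.9, 87.2 and 88.7 units in RS, against 386, 425 and 428 in PGC, a fall of 4.79-fold (log2 -2.26, SE 0.17, limma adjusted p = 7.47e-08). Ccnd1 was at 354, 327 and 340.2 units in RS and 495, 447 and 488 in PGC, and Ccnd3 at 2951, 3139 and 3337 in RS and 1832, 1681 and 1937 in PGC. Neither was called, with log2 differences of -0.49 and 0.79, although the groups did not overlap for either gene. Ccnd3 passed the threshold in its other tested probe set, at 1.01, and under median centring, at 1.24. The E-type cyclins, partners of Cdk2, fell together. Ccne1 was at 259, 224 and 184 units in RS, against 864, 849 and 1104 in PGC (4.23-fold, log2 -2.08, SE 0.16, limma adjusted p = 1.16e-07). Ccne2 was at 346, 323 and 322 units in RS, against 878, 853 and 746 in PGC (2.50-fold, log2 -1.32). Under median centring and quantile normalization the difference of Ccne2 was -0.87 and -0.81, under 2-fold.

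Of the kinases that these cyclins bind, Cdk4 moved most. Cdk4, the partner of D-type cyclins, was at 147, 179.8 and 215 units in RS, against 4527, 4280.0 and 4051 in PGC. The RS arrays lay far below, and Cdk4 fell 24.0-fold (log2 -4.59, SE 0.15, limma adjusted p = 4.50e-11). Cdk6, the other D-type partner, was at 269.9, 256 and 299 units in RS and 279.5, 219 and 243 in PGC, with overlapping groups (log2 0.16, SE 0.16, limma adjusted p = 0.378). Cdk1, the kinase of mitosis, was at 1137, 1217 and 1159 units in RS, against 5235, 4977 and 5085 in PGC, and fell 4.36-fold (log2 -2.12, SE 0.10, limma adjusted p = 1.01e-09). Cdk2 was at 621, 517 and 548 units in RS, against 2652, 2372 and 2331 in PGC, and fell 4.37-fold (log2 -2.13, SE 0.15). In the Cdk-activating kinase, Ccnh fell 7.28-fold, to 1028 ± 58.5 units in RS, against 7489 ± 425 in PGC, and Cdk7 fell 3.22-fold.

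The transcription members went in both directions. Of the cyclins, 3 of 6 fell and 1 rose, and of the kinases 3 of 6 fell and 1 rose. Ccnt2, a partner of Cdk9 in the elongation factor P-TEFb, was at 46.9, 46.0 and 79.2 units in RS, against 2481, 2575 and 2677 in PGC, a fall of 46.4-fold (log2 -5.54, SE 0.19, limma adjusted p = 5.92e-11). Its 4 other probe sets had the same sign but gave between -0.31 and -3.63. Cdk9 itself was at 762, 655 and 672 units in RS, against 8324, 8189 and 9758 in PGC, and fell 12.6-fold (log2 -3.65, SE 0.17, limma adjusted p = 1.17e-09). Cdk12, a kinase of the polymerase tail, was at 119, 104 and 97.7 units in RS, against 1942, 2128 and 2039.6 in PGC, and fell 19.1-fold (log2 -4.26, SE 0.31). Its 6 other probe sets were lower as well, but by less, between -0.13 and -3.82. Ccnk, the cyclin that Cdk12 and Cdk13 bind, went the other way, with 2746, 3221 and 3077 units in RS, against 291, 352 and 352 in PGC. It rose 9.10-fold (log2 3.19, SE 0.16, limma adjusted p = 1.78e-09). Cdk19, a Mediator kinase, was at 1149, 1151 and 1279 units in RS, against 263, 278 and 262 in PGC, and rose 4.46-fold, while Cdk8, its paralog in the same module, fell 4.08-fold, to 1428 ± 92.2 units in RS, against 5829 ± 293 in PGC. With the probe set of highest mean log2 in its place, Cdk19 gave 0.74.

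Among the other members, 3 rose and 7 fell. Cdk20, also named cell cycle-related kinase, was at 1069, 1280.0 and 1227 units in RS, against 67.5, 78.8 and 80.8 in PGC, and rose 15.7-fold (log2 3.98, SE 0.27, limma adjusted p = 4.12e-08). Cdk3, a kinase of the exit from G0 in human cells, was at 144, 116 and 57.3 units in RS, against 27.9, 45.8 and 9.50 in PGC, and rose at least 2.81-fold (log2 1.49, SE 0.48, limma adjusted p = 0.0127). Its signal was near the floor, and without RS replicate 1 it was not called (log2 1.22, adjusted p = 0.056). Cdk16, a kinase required for spermiogenesis in mice, was at 330.0, 311 and 358 units in RS, against 3375, 3283 and 3622 in PGC, and fell 10.3-fold (log2 -3.36, SE 0.10). The other probe sets of Cdk16 gave -1.45 and 0.45, so the size and sign depended on the probe set. Ccng1, a p53 target, fell 7.53-fold, to 86.0 ± 9.31 units in RS, against 646 ± 49.2 in PGC. Ccnj, Ccnq, Ccny, Cdk5 and Cdk17 also fell, Cdk17 by 9.67-fold, and Ccno rose 2.67-fold.

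Of the 18 called members with other probe sets, 14 had the same sign in all of them. The exceptions were Cdk16, Ccnt1, Ccnc and Cdk5. For Ccnc and Cdk5 another probe set was itself past the threshold in the opposite direction, at 1.24 and 1.44, so no direction is settled for these genes. Median centring, under which the all-gene median was 0.22, gave 8 higher and 18 lower members, and quantile normalization 7 and 17. Both embryonic globins, markers of blood, also fell in RS, and their part in these results was not tested. Of the 5 meiotic spermatocyte markers, 4 rose in RS and none fell. Their part in the results, that for Ccna1 included, was not tested.

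Partner genes were read from 4 lists. Cdk inhibitors split, with 4 of 8 higher and 3 lower in RS. Cdkn2c, an inhibitor of Cdk4 and Cdk6, was at 3309, 3096 and 2924 units in RS, against 79.2, 135 and 89.4 in PGC (log2 4.98), and Cdkn3, a phosphatase of Cdks, was at 9709 ± 808 in RS, against 413 ± 44.7 in PGC (log2 4.56). Of 17 tested regulators and cofactors, 2 rose and 11 fell, with Spdya, a Cdk2 activator of meiosis, at log2 4.60 and Ccnb1ip1, a ligase needed for meiotic crossing over, at -4.19. Of 13 pocket protein and E2F genes, 1 rose and 8 fell, with Tfdp1 and E2f6 at -3.71 and -3.51. Of 14 genes of cyclin and inhibitor turnover, 4 rose and 7 fell, with Fbxo5, an inhibitor of the anaphase-promoting complex, at -5.37 and Skp2, a ligase subunit for Cdk inhibitors, at 4.23.

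**Figure D2:**
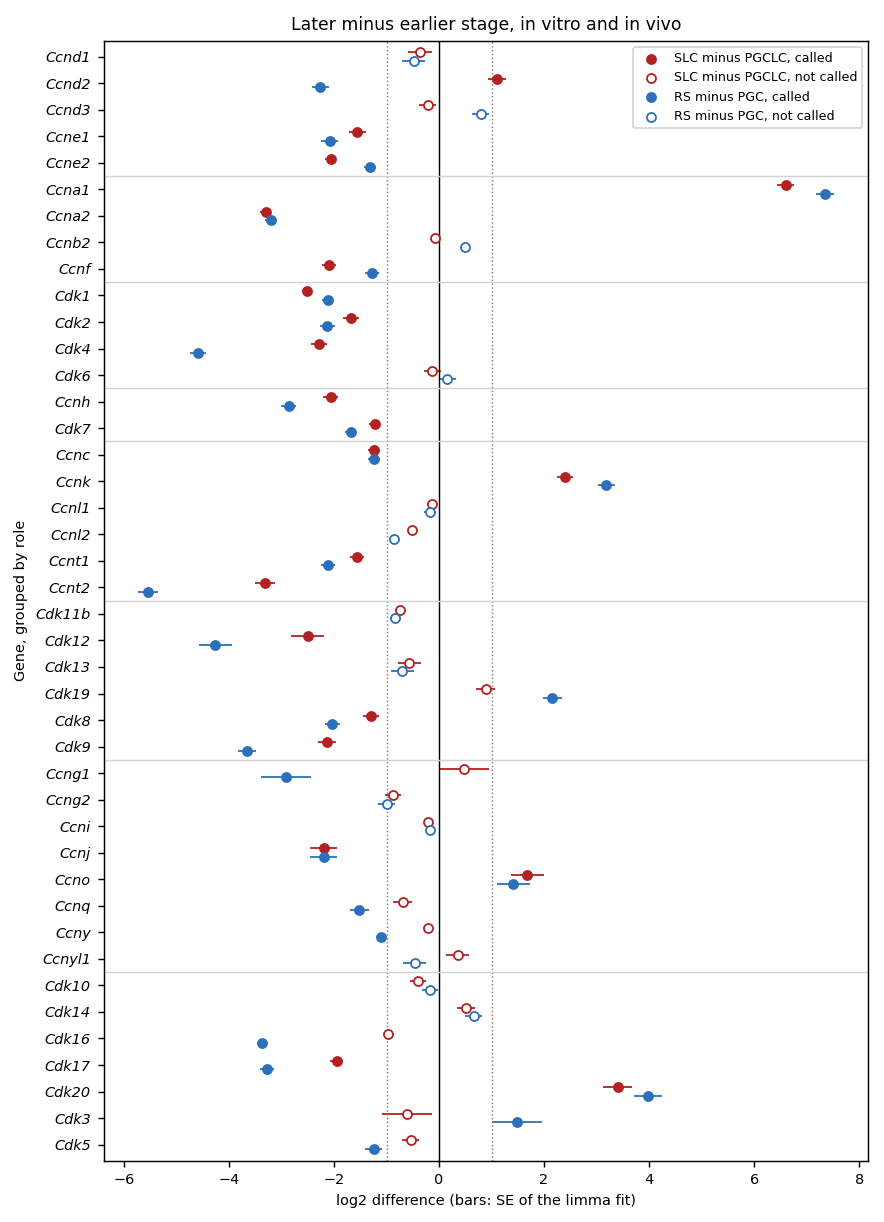
Log2 difference of each tested member between stages, SLC minus PGCLC in red and RS minus PGC in blue, with bars for the SE of the limma fit and filled points for called genes. Dotted lines mark 2-fold. Both points of Ccna1 lie at 6.60 or above and both points of Ccna2 at -3.21 or below, while for Ccnd2, Ccng1, Cdk4 and Cdk16 the points stand apart.

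SLC were compared with PGCLC to follow the same interval in vitro. Ccna1, Cdk20, Ccnk, Ccno and Ccnd2 rose, and 17 members fell, among them Ccna2, both E-type cyclins, Cdk1, Cdk2 and Cdk4. These are 11.9% and 40.5% of the 42 tested, beside 29.9% higher and 27.4% lower of all genes tested. With no minimum fold, 7 were higher and 26 lower, beside 75.9% of all genes in either direction. The median log2 difference was -0.65 over the members and -0.07 over all genes. The arrays of this comparison are not those of RS and PGC. All 17 members that fell in vitro were among the 23 that fell in RS (100% and 73.9% of the lists), and 4 of the 5 that rose were among the 6 that rose in RS (80% and 66.7%). Over all genes the shared calls were 86.6% and 62.9% of the lower lists and 82.8% and 77.7% of the higher lists.

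Ccna1 was at 3112, 3295 and 3231 units in SLC, against 7.55, 38.7 and 28.4 in PGCLC. The PGCLC arrays lay at or near the floor, and Ccna1 rose at least 96.8-fold (log2 6.60, SE 0.17, limma adjusted p = 6.75e-12). Ccna2 was at 369, 374 and 440.1 units in SLC, against 4007, 3631 and 3996 in PGCLC, and fell 9.86-fold (log2 -3.30, SE 0.10, limma adjusted p = 5.34e-11). Ccnb2 was at 5022, 5119 and 5127 units in SLC and 5390.5, 5699 and 5111 in PGCLC, with overlapping groups (log2 -0.08, SE 0.05, limma adjusted p = 0.175). Ccnf fell 4.28-fold, to 322 ± 30.2 units in SLC, against 1379 ± 146 in PGCLC. Ccnb3 was at 52.3, 26.5 and 10.8 units in SLC and 10.4, 3.85 and 24.9 in PGCLC, under the filter.

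The G1 cyclins split. Ccnd2 was at 3732, 4302 and 3915 units in SLC, against 2273, 1364 and 2044 in PGCLC. It rose 2.15-fold (log2 1.10, SE 0.17, limma adjusted p = 7.34e-05), but gave 0.88 without PGCLC replicate 2 and 0.73 as the mean of its probe sets. Ccnd1 was at 1128, 974 and 1125 units in SLC and 1967, 885 and 1504 in PGCLC, and Ccnd3 at 2411, 2237 and 2264 in SLC and 3316, 1946 and 2975 in PGCLC. For both, PGCLC replicate 2 lay below the SLC arrays and the other PGCLC arrays above, and neither was called (log2 -0.36 and -0.22). With an array left out, Ccnd1 gave -0.68 to -0.10 and Ccnd3 -0.45 to -0.06. Another probe set passed the threshold for each, at -1.20 for Ccnd1 and -1.25 for Ccnd3. Ccne1 was at 363, 457 and 404 units in SLC, against 1283, 1186 and 1111 in PGCLC, a fall of 2.93-fold. Ccne2 was at 199, 201 and 207 units in SLC, against 857, 831 and 854 in PGCLC, a fall of 4.18-fold (log2 -2.06, SE 0.11, limma adjusted p = 6.48e-09).

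Of the kinases, Cdk1 was at 954, 848 and 882 units in SLC, against 5854, 4445 and 5144 in PGCLC, and fell 5.72-fold (log2 -2.52, SE 0.10, limma adjusted p = 3.62e-10). Cdk4 was at 948, 917 and 949 units in SLC, against 5221, 3720.3 and 4915 in PGCLC, and fell 4.87-fold (log2 -2.28, SE 0.15). Cdk2 fell 3.19-fold, with 889, 665 and 587 units in SLC, against 2392, 2018 and 2334 in PGCLC. For these 3 kinases every SLC array lay below every PGCLC array. Cdk6 was at 364, 349.7 and 410.1 units in SLC and 469, 338 and 430.1 in PGCLC, and the groups overlapped (log2 -0.13). Ccnh and Cdk7 fell 4.17-fold and 2.34-fold.

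In the transcription groups, 3 of 6 cyclins and 3 of 6 kinases fell and Ccnk rose. Ccnt2 was at 241, 214 and 259.8 units in SLC, against 2316, 2429.6 and 2360.2 in PGCLC (9.98-fold lower, log2 -3.32, SE 0.19). Cdk12 was at 179.8, 193 and 206 units in SLC, against 610.0, 1944 and 1095 in PGCLC, and fell 5.67-fold (log2 -2.50, SE 0.31), with -0.40 to -3.55 in its other probe sets. PGCLC replicate 2 was the brightest of the 3 for Cdk12, near the PGC level, and with an array left out Cdk12 gave -2.92 to -2.09. Ccnk was at 1585, 1891 and 1811 units in SLC, against 361, 392 and 260.4 in PGCLC, and rose 5.28-fold (log2 2.40, SE 0.16, limma adjusted p = 4.24e-08). Cdk19 was at 731 ± 53.3 units in SLC and 406 ± 109 in PGCLC and was not called (log2 0.89). Among the other members, Cdk20 was at 541, 591 and 546 units in SLC, against 25.1, 67.5 and 71.7 in PGCLC, and rose 10.5-fold by mean log2 values and 10.2-fold by mean intensities. Ccno, a cyclin of multiciliated cells, rose 3.21-fold, to 192, 185 and 161 units in SLC, against 88.8, 53.5 and 36.4 in PGCLC. The other probe sets of Ccnc and Ccnt1 did not all share the sign of their fall. For the other 11 of 13 called members with other probe sets they did.

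Of the partner lists, Cdk inhibitors had 4 of 8 higher and 3 lower in SLC, with Cdkn3 at log2 3.61 and Cdkn2c at 3.43. Regulators and cofactors had 1 of 17 higher, Spdya at 4.97, and 9 lower, with Ccnb1ip1 at -4.08. Pocket protein and E2F genes had 1 of 13 higher and 10 lower, with E2f7 and E2f8, repressors of the E2F family, at -2.62 and -2.54. Turnover genes had 2 of 14 higher and 7 lower, with Fbxo5 at -4.92 and Ube2c, a conjugating enzyme of the anaphase-promoting complex, at -3.20. Testis somatic markers were also higher in SLC than in PGCLC, with 4 of 8 called, and their part in these results was not tested. Meiotic spermatocyte markers were higher as well, with 4 of 5 called, and their part was not tested either.

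**Figure D3:**
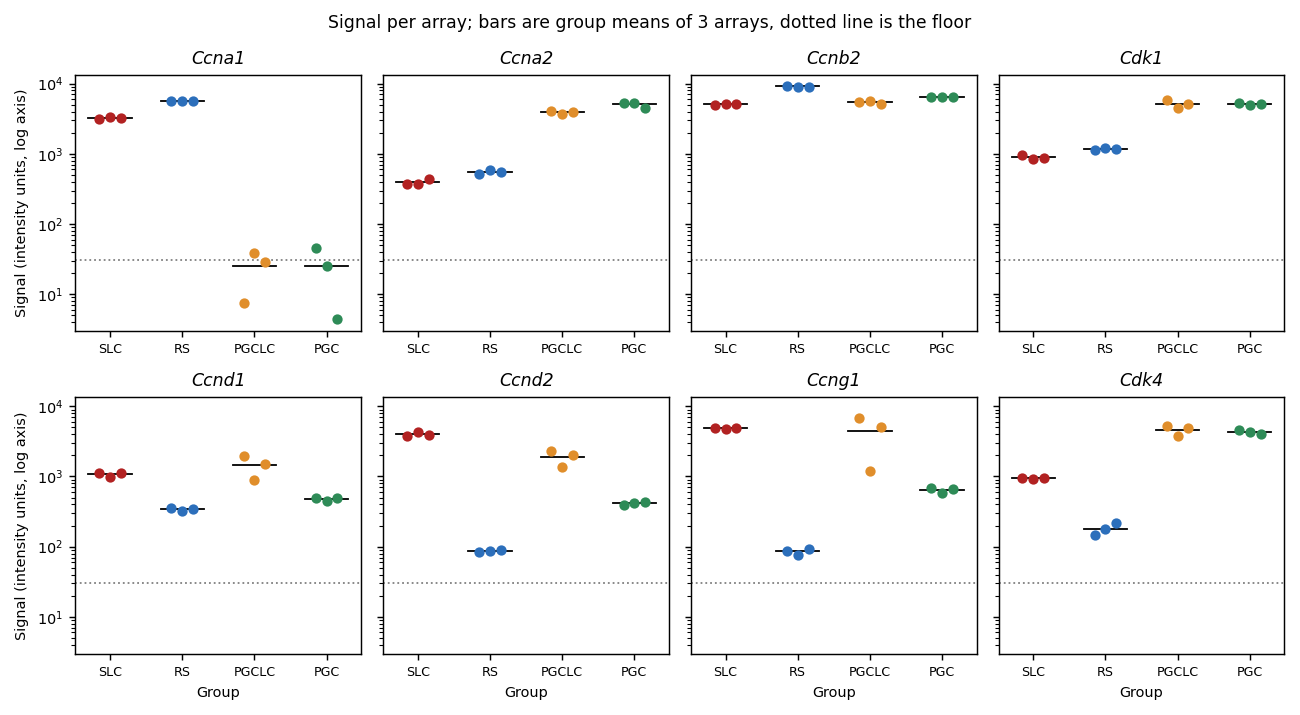
Signal of 8 members on each array (log axis, intensity units), with a panel for each gene, points for arrays, bars for means of 3 arrays and a dotted line at the floor of 30.7 units. Groups run from left to right as SLC, RS, PGCLC and PGC. The Ccna1 points lie between 3112 and 5727 units in SLC and RS and near the floor in PGCLC and PGC, and the Ccnd2, Ccng1 and Cdk4 points lie higher in SLC than in RS.

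SLC were set against RS as the in vitro and in vivo cells of the later stage. Ccng1 and Ccnd2 stood far higher in SLC, by 5.83 and 5.53 on the log2 scale, and Cdk16, Cdk4, Ccnt2, Ccnd1 and Cdk17 were higher by 1.05 to 2.47. Only Cdk20 was lower past the threshold, while Ccna1, Ccnb2 and Cdk1 were lower by less than 2-fold. The calls were 7 of 42 higher and 1 lower (16.7% and 2.38%), beside 24% higher and 3.44% lower of all genes tested. With no minimum fold, 17 were higher and 11 lower, beside 63.8% of all genes in either direction. The median log2 difference was 0.13 over the members and -0.15 over all genes. All RS arrays here are also those of the comparison with PGC, and all SLC arrays those of the comparison with PGCLC.

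Ccnd2 averaged 3983 ± 291 units in SLC, against 86.3 ± 2.97 in RS, with no overlap. It rose 46.1-fold (log2 5.53, SE 0.17, limma adjusted p = 2.67e-10), and its 6 other probe sets gave 2.49 to 5.55. Ccng1 was at 4907, 4733 and 4959 units in SLC, against 87.8, 75.9 and 94.2 in RS, and rose 56.8-fold (log2 5.83, SE 0.47, limma adjusted p = 8.47e-07). Its 2 other probe sets gave 2.19 and 4.67. Ccnd1 averaged 1076 ± 88.3 units in SLC, against 340.3 ± 13.7 in RS, and rose 3.16-fold (log2 1.66, SE 0.23). Ccnd3 was at 2304 ± 93.8 in SLC and 3142 ± 193 in RS (log2 -0.45, SE 0.16, limma adjusted p = 0.0294). Of the D-type cyclins, Ccnd1 and Ccnd2 thus rose. Ccnd3 did not pass 2-fold by its chosen probe set, but its other tested probe set gave -2.01. The mean of its probe sets gave -1.23 and median centring -1.09, and all of these were past the threshold. All 8 testis somatic markers also rose in SLC, by a median of 4.66 on the log2 scale, with Col1a1, a collagen gene of connective tissue, at 8013, 8740 and 8282 units in SLC, against 94.4, 69.5 and 165 in RS. Their part in the results for Ccnd1, Ccnd2, Ccng1 and Cdk4 was not tested.

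Cdk4 averaged 938 ± 18.4 units in SLC, against 180.5 ± 33.7 in RS, and rose 5.26-fold (log2 2.39, SE 0.15, limma adjusted p = 8.89e-08). Its 2 other probe sets gave 2.25 and 2.56. Cdk16 was at 1646, 2008 and 1897 units in SLC, against 330.0, 311 and 358 in RS, and rose 5.55-fold (log2 2.47, SE 0.10), but its other probe sets gave 0.44 and -0.76. Ccnt2 averaged 238 ± 23.1 units in SLC, against 57.4 ± 18.9 in RS, and rose 4.28-fold (log2 2.10, SE 0.19), with 0.09 to 0.67 in its other probe sets. As the mean of their probe sets, Cdk16 and Ccnt2 gave 0.72 and 0.78, under 2-fold. Cdk17 rose 2.07-fold, close to the threshold, to 661 ± 58.0 units in SLC, against 321 ± 45.4 in RS, and was not called without RS replicate 2 or without SLC replicate 1. Its other tested probe set gave 0.08, and as the mean of its probe sets Cdk17 was not called. Cdk20 fell 2.13-fold, to 559.5 ± 27.2 units in SLC, against 1192 ± 109.7 in RS (log2 -1.09, SE 0.27, limma adjusted p = 0.00483).

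The S, G2 and M cyclins were all lower in SLC by less than 2-fold, at -0.82 for Ccna1, -0.47 for Ccna2, -0.84 for Ccnb2 and -0.86 for Ccnf, and all 4 passed 2-fold under median centring. Ccna1 averaged 3212 ± 92.6 units in SLC and 5673 ± 60.3 in RS, and Ccnb2 5089 ± 58.5 in SLC and 9094 ± 87.8 in RS, with every SLC array below every RS array. The adjusted p of limma was 0.00116 for Ccna1 and 1.10e-07 for Ccnb2. Cdk1 averaged 895 ± 53.9 units in SLC and 1171 ± 41.3 in RS (log2 -0.39). Ccne1 was at 408 ± 47.1 in SLC and 222 ± 37.6 in RS (log2 0.88, SE 0.16), and Ccne2 at 203 ± 3.90 in SLC and 330.3 ± 13.2 in RS (log2 -0.71, SE 0.11), so the E-type cyclins differed in sign, and Ccne1 was called without RS replicate 1. Cdk2 and Cdk6 gave 0.33 and 0.45, but -0.31 and -0.20 under median centring. The sign of small differences depended on the scaling. The all-gene median was -0.79 under median centring and -0.33 under quantile normalization. Of all calls in this comparison, 87.4% were higher in SLC, but 28.7% after median centring and 55.6% after quantile normalization. The members' calls were then 6 higher and 13 lower under median centring and 6 and 4 under quantile normalization. The spermatid markers were likewise lower in SLC, summing to 100263 to 105337 units, against 129615 to 138748 in RS, and their part in the small differences was not tested.

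The partner lists held no called falls in SLC except Btrc, a ubiquitin ligase subunit (log2 -1.26). Of 8 Cdk inhibitors, 4 rose. Cdkn1a, the p21 inhibitor and a p53 target like Ccng1, was at 4529.9, 4588 and 4903 units in SLC, against 88.8, 81.6 and 71.7 in RS (log2 5.86, SE 0.32, limma adjusted p = 3.06e-08). Cdkn2b, an inhibitor of Cdk4 and Cdk6, was at 1894 ± 115 units in SLC, against 192 ± 26.7 in RS (log2 3.31). Of 17 regulators and cofactors, 4 rose, with Ccndbp1, a cyclin D-binding protein gene, at 3.05 and Hexim1, an inhibitor of P-TEFb, at 2.18. Of 13 pocket protein and E2F genes, 3 rose, with E2f6 and E2f3 at 1.74 and 1.44, and of 14 turnover genes Anapc4 rose (1.75).

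**Figure D4:**
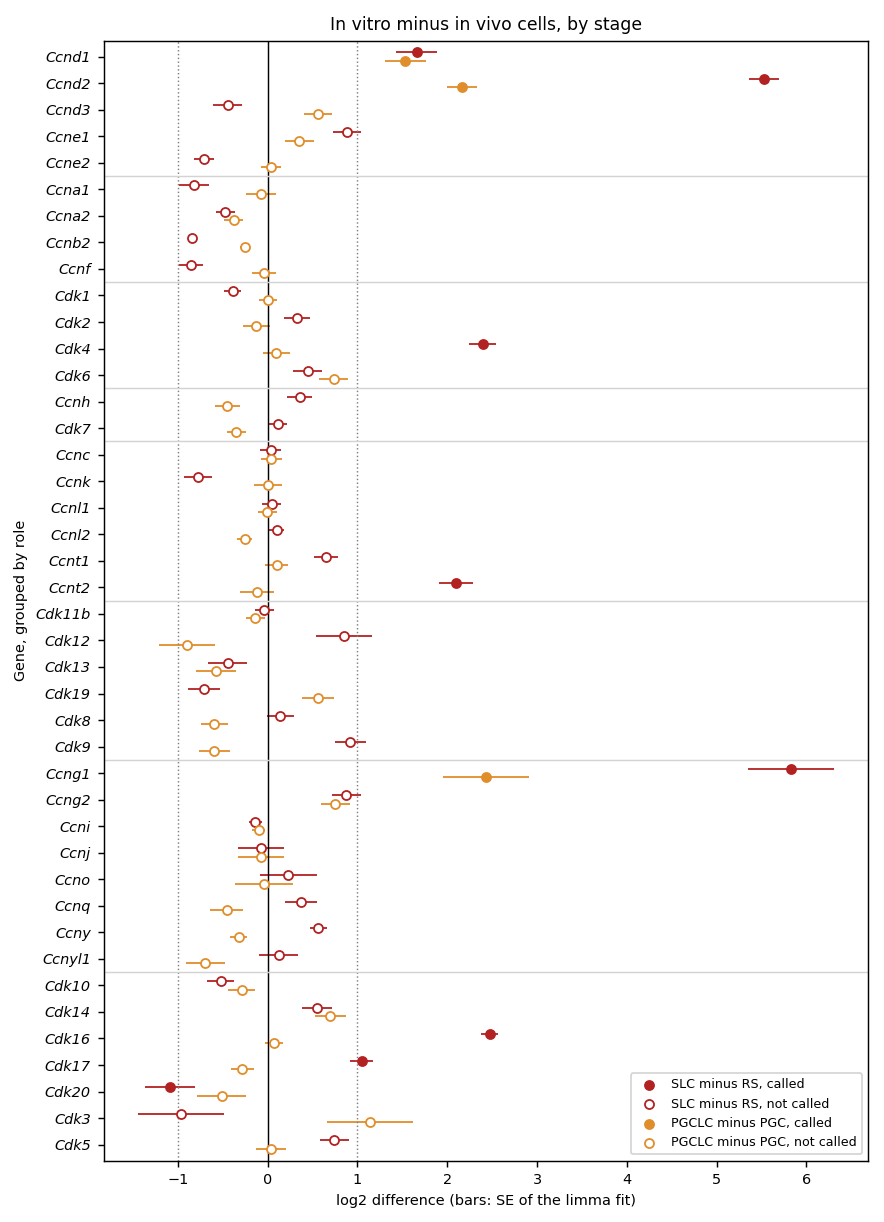
Log2 difference of each tested member between in vitro and in vivo cells, SLC minus RS in red and PGCLC minus PGC in orange, with bars for the SE of the limma fit and filled points for called genes. Dotted lines mark 2-fold. Ccnd1, Ccnd2 and Ccng1 are filled in both comparisons, and most other members lie between the dotted lines.

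PGCLC were set against PGC as the in vitro and in vivo cells of the earlier stage. By the chosen probe sets, Ccnd1, Ccnd2 and Ccng1 rose and no member fell. Another probe set was past the threshold, higher in PGCLC, for Ccnt2 (1.88), Ccnc (1.25), Cdk7 (1.17), Cdk13 (1.02) and Cdk5 (1.01). For Ccnt2, Cdk7 and Cdk13 the chosen probe set had the opposite sign. The calls were 3 of 42 higher and 0 lower, beside 10.4% higher and 1.61% lower of all genes tested. With no minimum fold, 8 were higher and 10 lower, beside 30.1% of all genes in either direction, and at an unadjusted p under 0.05 in limma, 10 members were higher and 12 lower. The median log2 difference was -0.05 over the members and 0.005 over all genes.

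Ccnd2 averaged 1894 ± 473 units in PGCLC, against 413 ± 23.3 in PGC, and rose 4.48-fold (log2 2.16, SE 0.17, limma adjusted p = 6.60e-05). All 6 of its other probe sets were higher as well. Ccnd1 averaged 1452 ± 543 units in PGCLC, against 477 ± 25.7 in PGC, and rose 2.89-fold (log2 1.53, SE 0.23, limma adjusted p = 0.00153). Ccng1 was at 6854, 1198 and 5133 units in PGCLC, against 681, 589.7 and 666 in PGC, and rose 5.40-fold (log2 2.43, SE 0.47, limma adjusted p = 0.00532). Its 2 other probe sets gave 1.14 (limma adjusted p = 0.0662, not called) and 1.83. PGCLC replicate 2 was the lowest of its group for all 3 genes, yet above every PGC array. Without it the differences were 2.38 for Ccnd2, 1.85 for Ccnd1 and 3.20 for Ccng1. A fit of the 6 PGCLC and PGC arrays alone kept only Ccnd2, with adjusted p = 0.0667 for Ccnd1 and 0.0951 for Ccng1. Some markers of other cells were also higher in PGCLC. Of 8 testis somatic markers 4 rose, as did 2 of 6 fetal gonad somatic markers and 3 of 4 macrophage markers. Wt1, Sox9 and Col1a1 stand on both somatic lists. The macrophage markers summed to 539 to 1931 units in PGCLC, against 227 to 253 in PGC, and none of the 4 lay above the filter level on every PGC array. Cd68, a macrophage lysosomal protein gene, was at 944, 109.7 and 635 units in PGCLC, against 60.4, 88.7 and 96.2 in PGC, and Csf1r, a macrophage receptor gene, at 796, 280 and 601 units in PGCLC, against 90.7, 84.8 and 54.2 in PGC. Within PGCLC both were highest on replicate 1 and lowest on replicate 2, as Ccng1 was, whereas Hbb-y and Ddx4 ran the other way. Adgre1 ran as Ccng1 did, but Lyz2 was lowest on replicate 3. The somatic markers were mixed. Clu, Vim, Acta2 and Dlk1 ran as Ccng1 did. Wt1, Nr5a1, Gata4, Cyp11a1, Star and Sox9 were highest on replicate 2 and lowest on replicate 1, with Wt1 at 100, 906 and 298 units. Col1a1 was highest on replicate 2 and lowest on replicate 3. The part of these markers in the results was not tested.

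None of the other cell cycle members was called. Cdk1 averaged 5148 ± 705 units in PGCLC and 5099 ± 129.6 in PGC (log2 0.005), Cdk2 2248 ± 201 in PGCLC and 2452 ± 175 in PGC (-0.13), and Cdk4 4619 ± 793 in PGCLC and 4286 ± 238 in PGC (0.09). Their groups overlapped, although a difference under the spread of the PGCLC arrays would not have been detectable. Ccne1 averaged 1194 ± 86.4 units in PGCLC and 939 ± 143 in PGC (0.35), and Ccne2 847 ± 14.3 in PGCLC and 826 ± 70.0 in PGC (0.04). Ccna2 was a little lower, at 3878 ± 214 units in PGCLC and 5044 ± 443 in PGC (log2 -0.38, SE 0.10), as was Ccnb2, at 5400.1 ± 294 in PGCLC and 6435 ± 76.5 in PGC (-0.25, SE 0.05). Ccna1 lay near the floor in both groups. Ccnd3 averaged 2746 ± 714 units in PGCLC and 1817 ± 129 in PGC (0.56), and Cdk6 412 ± 67.1 in PGCLC and 247 ± 30.7 in PGC (0.73). Both were higher on every PGCLC array than on any PGC array, but by less than 2-fold, so neither was called. The limma adjusted p was 0.0239 for Ccnd3 and 0.00901 for Cdk6. Among the transcription kinases, Cdk12 gave -0.90, with 610.0, 1944 and 1095 units in PGCLC, against 1942, 2128 and 2039.6 in PGC, and Cdk8 and Cdk9 each gave -0.59. Without PGCLC replicate 2, Cdk12 and Ccnyl1 were called lower.

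Of the partner lists, 4 of 8 Cdk inhibitors rose and none fell. Cdkn1c, the p57 inhibitor, was at 6069, 1364 and 4351 units in PGCLC, against 798, 687 and 785 in PGC (log2 2.13, SE 0.41, limma adjusted p = 0.00482). Cdkn1b, the p27 inhibitor, was at 2466, 702 and 1922 units in PGCLC, against 581, 349 and 501 in PGC (log2 1.68, limma adjusted p = 0.013). As for Ccng1, PGCLC replicate 2 was the lowest of its group for both. Of 17 regulators and cofactors, Spdya fell (log2 -1.18) and Cdk5r1, an activator of Cdk5, was not called (0.76). Spdya was at 44.2, 136 and 71.5 units in PGCLC and 133, 205 and 185 in PGC, so the groups overlapped at PGCLC replicate 2. None of 13 pocket protein and E2F genes or 14 turnover genes was called by limma, with Rbl2 at 0.85 and Rb1 at -0.64 in the first list and Anapc1 at -0.70 and Skp2 at 0.69 in the second.

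**Figure D5:**
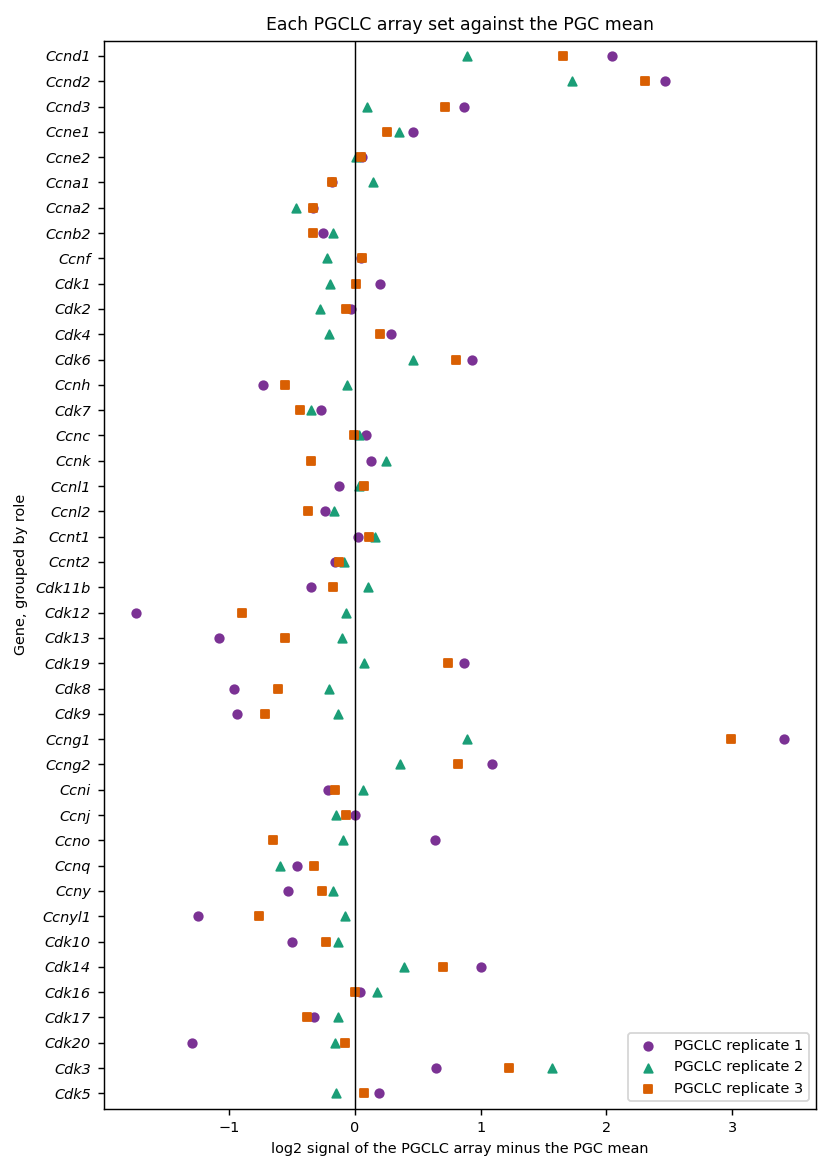
Log2 signal of each PGCLC array minus the PGC mean for each tested member, with circles for replicate 1, triangles for replicate 2 and squares for replicate 3. For Ccng1 the 3 arrays lie at 3.41, 0.89 and 2.99, and for most members the triangle lies nearest to 0.

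The difference between the stage changes in vitro and in vivo, which is also the SLC minus RS difference less the PGCLC minus PGC difference, was tested as an interaction in the same fit. It was called for 8 of 42 members with a positive sign and 3 with a negative sign (19% and 7.14%), beside 21.1% and 11.2% of all genes tested. With no minimum fold, 17 were positive and 9 negative, beside 48.5% of all genes in either direction. The median was 0.13 over the members and -0.04 over all genes. Ccng1 (log2 3.40) and Ccnd2 (3.36) had the largest positive values. Without PGCLC replicate 2, Ccng1 gave 2.63 and Ccnd2 3.14, and the other probe sets of Ccng1 gave 1.05, which was not called, and 2.84. Next came Cdk16, Cdk4, Ccnt2, Cdk12, Cdk9 and Cdk17. Ccnd2 rose by 1.10 in SLC against PGCLC, whereas it fell by 2.26 in RS against PGC. Cdk4 fell by 2.28 in vitro, whereas it fell by 4.59 in vivo, so the in vitro fall was the smaller (interaction 2.30, SE 0.21, limma adjusted p = 6.12e-06). Cdk3, Cdk19 and Ccnd3 had negative values, at -2.10, -1.27 and -1.01, and the calls of Cdk3 and Ccnd3 each depended on single arrays. Ccnd1, which was higher in vitro at both stages, gave 0.13 (SE 0.32), and Ccna1, Ccna2, Ccnb2, Cdk1, Cdk2, Cdk6, Ccne1 and Ccne2 were not called, with values between -0.75 and 0.53. For Ccnt2, Cdk12, Cdk16 and Cdk17 other probe sets differed in sign, and as the mean of their probe sets these 4 were not called. In the partner lists, Cdkn1a gave 4.37 and Cdkn1c -2.84, Ccndbp1 3.33 and Cdk2ap2, a Cdk2-associated protein gene, 2.19, E2f6 2.12 and E2f3 1.80, and Anapc4 2.36 and Skp2 -1.55.

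By the chosen probe set, no direction was called for 12 of the 42 members in any of the 4 comparisons of groups. These were Ccnl1 and Ccnl2, cyclins linked to splicing, Ccnb2, Ccnd3, Ccni, Ccng2, Ccnyl1, Cdk6, Cdk10, Cdk11b, Cdk13 and Cdk14. The like share over all genes was not computed. Other probe sets of Ccnl2, Ccnd3, Ccni, Cdk6, Cdk13 and Cdk14 did pass the threshold, as Ccnl2 did at -2.22 in RS against PGC. Under median centring Ccnb2, Ccnd3, Cdk10 and Cdk13 were called lower in SLC than in RS. The 12 are thus not shown to be stable. Ccnl1 was at 2573 ± 321 units in SLC, 2481 ± 151 in RS, 2804 ± 204 in PGCLC and 2813 ± 244 in PGC. Ccni averaged 6388 ± 93.6 units in SLC, 7029 ± 406 in RS, 7436 ± 777 in PGCLC and 7948 ± 286 in PGC. Cdk18 was under the filter, at 69.6, 54.6 and 91.2 units in SLC, 73.5, 18.8 and 61.3 in RS, 127, 26.5 and 116 in PGCLC and 6.93, 3.24 and 6.20 in PGC. Its PGC arrays all lay below the floor, and a level so low carries no test here.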

How the data were processed

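Total RNA of 12 samples was hybridised with a biotin label to Affymetrix 3' arrays, per the labels' protocols. The authors deposited 1 linear intensity per probe set and array, made with MAS5 per the submitters' processing notes (version not given in the sources used here), and the deposited intensity values had a trimmed mean of 500 on every array. Of 45101 probe sets, 64 controls, 932 with several symbols and 9160 with none were left out. For 34741 of the other 34945 probe sets the symbol was checked by Entrez identifier. A gene's probe set was that with the highest mean over 12 arrays, and it was tested if it passed the table's median, 92.0 units, on at least 3 arrays, which left 14181 genes. Intensities were floored at 30.7 units and log2-transformed here. Of the probe sets used, those named _s_at or _x_at, as for Cdk4 and Cdk16, can match several transcripts.

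All 12 arrays entered 1 limma fit (limma 3.58.1, R 4.3.3) with 4 group means, an intensity trend and Benjamini-Hochberg adjustment over all genes tested, so the spread among PGCLC arrays enters every SE. The fit was also run on simulated data with independent noise and a small set of genes moved in SLC alone. The groups here differed far more broadly, so that run does not show how accurate the calls are. Folds come from mean log2 values. "At least" stands before a fold if the dimmer group had an array at the floor and mean intensities gave no smaller ratio. Named in full were 13 cell cycle members (Ccnb1 not analysed here), up to 5 called rises and falls per comparison and the 2 largest differences per partner list. Members, lists and alternatives were chosen with earlier results of these data known. Groups and replicate numbers came from the titles. Deviations of same-numbered arrays from their group means correlated at -0.02 to 0.13. The main fit did not pair arrays by number, although such values cannot exclude shared handling of same-numbered samples. Alternatives were the floor, filter, scaling, choice of probe set, variance model, replicate block, fold threshold and each array left out.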

Additional observations from a re-analysis of the deposited data

Results flagged for a closer look

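The in vitro minus in vivo difference was not the same at both stages for 11 members, by the interaction term of the limma fit. This term takes the PGCLC minus PGC difference from the SLC minus RS difference. It was called for 19% of the 42 members with a positive sign and 7.14% with a negative sign. Over all genes tested the shares were higher, at 21.1% and 11.2%. It was positive for Ccng1 (log2 3.40, adjusted p = 0.00173), Ccnd2 (3.36, adjusted p = 6.54e-07), Cdk16 (2.40, adjusted p = 1.61e-07), Cdk4 (2.30, adjusted p = 6.12e-06) and Ccnt2 (2.22, adjusted p = 4.82e-05). It was also positive for Cdk12 (1.75, adjusted p = 0.00685), Cdk9 (1.52, adjusted p = 0.000431) and Cdk17 (1.33, adjusted p = 0.000131). Ccnt2, Cdk12, Cdk16 and Cdk17 each had another probe set of opposite sign, and none of them was called as the mean of its probe sets. Without PGCLC replicate 2 the value of Ccng1 was 2.63, still called, and its 2 other probe sets gave 1.05, not called, and 2.84. The interaction was negative for Cdk3 (-2.10, adjusted p = 0.024), Cdk19 (-1.27, adjusted p = 0.00192) and Ccnd3 (-1.01, adjusted p = 0.00374). Cdk3 ranged from 9.50 to 144 units over the 12 arrays and was not called without PGC replicate 1 or 3, RS replicate 1 or 2, or SLC replicate 1 or 2. Ccnd3 was not called without PGC replicate 2, PGCLC replicate 1 or 3, RS replicate 3, or SLC replicate 2 or 3, and its values with an array left out lay between -0.85 and -1.24.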

How the results depend on the processing

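For 81 results on members, 1928 alternative values were computed, of which 1869 kept direction and side of the threshold, 24 no longer passed, 13 newly passed and 22 changed sign. Some alternatives could change only the SE and p value, not the log2 difference. Among them were the replicate block and leaving out an array of a group not compared. For part of the 1869 the direction was therefore fixed in advance. Each replicate number occurred once in every group, so the replicate block left every log2 difference as it was. The numbers of members called were also as in the fit without it in all 5 contrasts. They were, for example, 3 higher and 0 lower in PGCLC against PGC and 7 higher and 1 lower in SLC against RS. With no minimum fold the calls were 8 higher and 10 lower in PGCLC against PGC, 17 and 11 in SLC against RS, 26 lower in SLC against PGCLC, and 17 positive and 9 negative for the interaction. In PGCLC against PGC, the fit of these groups alone gave 1 higher, median centring gave 1 lower (Cdk12), and leaving out an array gave 0 to 2 lower, with 2 without PGCLC replicate 2. In SLC against RS, the mean of all probe sets gave 4 higher and 2 lower, median centring 13 lower, quantile normalization 4 lower, and leaving out an array 1 to 2 lower, with 2 without RS replicate 3 or SLC replicate 3 (Cdk3). For the interaction, the mean of all probe sets gave 4 positive, median centring 7 negative, quantile normalization 5 negative, and leaving out an array 1 to 3 negative, with 1 without SLC replicate 2. Over all genes the share of calls that were higher was 86.5% in PGCLC against PGC, 62.2% under median centring and 74.0% under quantile normalization, and for the interaction 65.4%, 37.3% and 55.4%.

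The changes of sign were in differences that did not pass. In PGCLC against PGC they were Ccna1 (0.0134 with an offset of 50, and -0.18 to 0.11 with an array left out), Ccne2 (-0.19 under median centring, -0.0180 under quantile normalization and -0.0313 to 0.0861 with an array left out), Cdk1 (-0.22 under median centring and -0.0924 to 0.11) and Cdk4 (-0.13 under median centring and -0.00189 to 0.24). In SLC against RS, median centring and quantile normalization gave -0.31 and -0.0871 for Cdk2 and -0.20 and -0.13 for Cdk6. In RS against PGC, Cdk6 gave -0.22 as the mean of its probe sets. For the interaction, Ccnd1 gave -0.29 under median centring, -0.36 under quantile normalization, -0.26 as the mean of its probe sets, -0.00523 with array weights and -0.19 to 0.38 with an array left out, while quantile normalization gave -0.0680 for Ccne1 and -0.0233 for Cdk2. The cause was not tested. Signals near the floor, as of Ccna1 in PGCLC and PGC or of Cdk3, limit what can be read from them.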
